A study of Mus musculus with 20 samples.

Results

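The genes described here are 9 transcriptional regulators that set the layer identity of neocortical projection neurons: Cux1, Cux2, Rorb, Fezf2, Bcl11b, Tbr1, Foxp2, Tle4 and Mef2c. They were taken by gene symbol from the 47729 genes of the count tables, each symbol matched 1 identifier, and all 9 passed the filter on low counts in every comparison. RNA-Seq was performed on the cortex and the hippocampus of 10 pups at P7, which gave 20 libraries in 4 groups of 5. All pups were of the strain C57Bl/6J. The 5 WT mice (mice 1 to 5, of which 3 were female) carried no transgene. The 5 Ube3aOE mice (mice 6 to 10, of which 2 were female) carried a bacterial artificial chromosome transgene that holds Ube3a, which encodes an E3 ubiquitin ligase, with its own flanking sequence, so that no cell type promoter drives it. Per the study, the animals sequenced were of its Ube3a+2 model, with 2 extra copies of the gene, and the labels name no transgenic line. Each library held the mRNA of a whole dissected tissue of 1 mouse, and a level is given as CPM, a gene's reads scaled to the library's total on genes after TMM normalization.

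The neocortex is built in layers. Neurons of the upper layers mainly project within the cortex, neurons of layer 5 send axons to the brainstem and spinal cord, and neurons of layer 6 send axons to the thalamus. The transcription factors that separate these classes act in part by repressing one another while the neurons mature. The hippocampus shares its glutamatergic lineage with the neocortex but has no such layers, and several of the same factors are also known from its pyramidal and granule neurons. Comparing the tissues therefore shows which of these factors were more abundant in one tissue at P7, and comparing the genotypes within a tissue shows whether extra Ube3a went with another level of any of them.

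Between 14191093 and 16752326 reads per library were counted on genes. The level of Ube3a matched the genotype labels. It ranged from 54.4 to 76.8 CPM in the 10 WT libraries and from 129.6 to 194.7 CPM in the 10 Ube3aOE libraries. The 8 hippocampus markers (among them Prox1, the regulator of dentate granule neurons) summed to 461 to 730.0 CPM in hippocampus and to 99.6 to 252 CPM in cortex. Several libraries stood apart. In cortex, Ube3aOE mice 8 and 9 had the highest hippocampus marker sums, 252 and 249 CPM, where the other 8 cortex libraries lay between 99.6 and 138 CPM. In hippocampus, mice 4, 7 and 10 had summed levels of the 9 thalamus markers of 583, 681 and 1320.5 CPM, against 182 to 273 CPM in the other 7. Mouse 9 had a summed level of the 11 striatum markers of 991 CPM, against 161 to 228 CPM in the other 9 hippocampus libraries. Mouse 2 had the highest sum of the 9 layer 6 and subplate markers in hippocampus, 439 CPM against 249.9 to 390.3 CPM in the others. The cortex library of WT mouse 2 had the lowest share of reads on genes, 69.7%, and the highest share of reads that did not align, 8.66%. The regional test of each member was also run without these 8 libraries, which were chosen by their markers and read shares after the data were examined. A choice by regional markers can itself widen the regional differences. The paralogs, further regulators, marker lists and nearest genes below, and the shares by size or overlap, are given for all 20 libraries only. In whole tissue, fewer cells of a type and less RNA per cell cannot be told apart.

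Levels of different genes were compared per kilobase of merged exon, since a longer gene collects more reads. In cortex, Mef2c was by far the most abundant of the 9, at 105 ± 17.6 CPM per kb (SD, n = 10), and its lowest library lay above the highest library of any other member. Tbr1 followed at 20.5 ± 1.72, Fezf2 at 19.1 ± 2.33, Cux2 at 16.3 ± 2.87, Tle4 at 14.3 ± 1.32, Bcl11b at 10.6 ± 1.81, Cux1 at 9.98 ± 1.54 and Rorb at 5.29 ± 1.33 CPM per kb. The ranges of each neighbouring pair from Tbr1 to Rorb overlapped, so that the order within this stretch was not resolved step by step. Foxp2 was lowest at 1.34 ± 0.247 CPM per kb, and its range did not touch that of Rorb. In hippocampus the order was another one. Bcl11b led at 20.2 ± 4.39 CPM per kb, followed by Fezf2 at 18.8 ± 5.15, Mef2c at 12.8 ± 10.5, Tle4 at 12.5 ± 2.67 and Tbr1 at 11.0 ± 2.29, all with overlapping ranges. A gap separated these from Cux1 at 4.17 ± 0.815 and Cux2 at 4.09 ± 0.945 CPM per kb, the members of the upper layers, and Foxp2 (1.29 ± 1.65) and Rorb (1.01 ± 0.374) came last. The merged exons include every annotated isoform, which lowers the value of genes with long alternative exons such as Cux1.

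**Figure D1:**
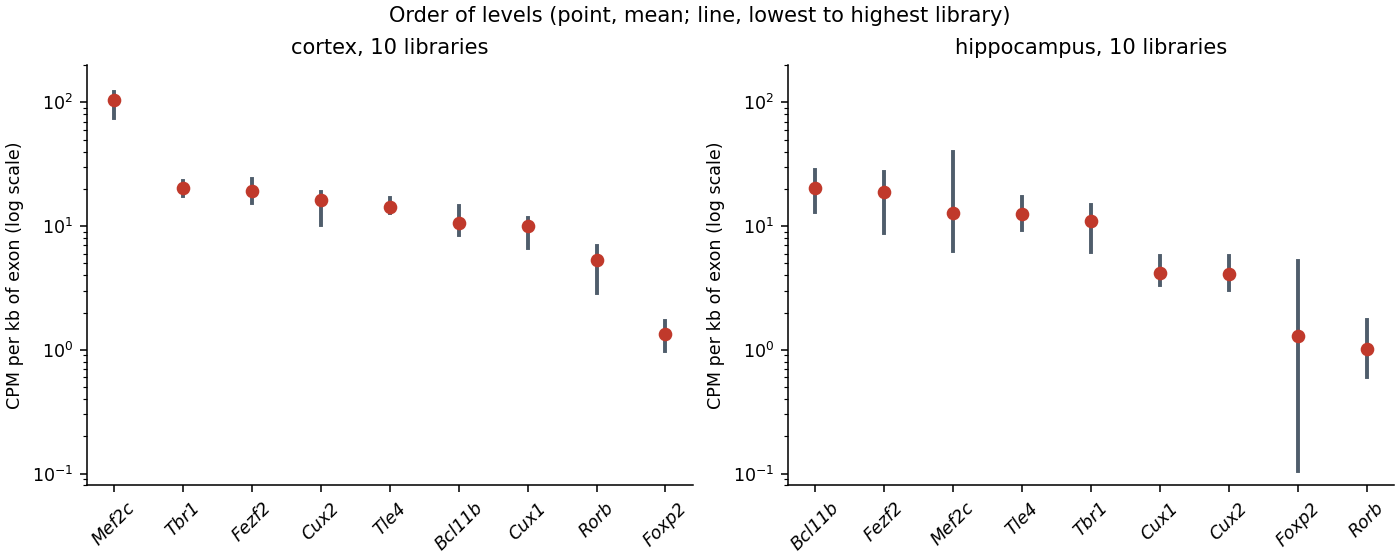
Levels of the 9 genes per kilobase of merged exon on a log scale, in the 10 cortex libraries (left) and the 10 hippocampus libraries (right), ordered by the mean. Points are means and lines run from the lowest to the highest library. Mef2c stands alone at the top in cortex (105 CPM per kb), while Bcl11b and Fezf2 lead in hippocampus (20.2 and 18.8 CPM per kb).

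The regional comparison asked which of the layer factors differed between hippocampus and cortex. Of the 9, 5 were lower in hippocampus (Cux1, Cux2, Rorb, Tbr1 and Mef2c), 1 was higher (Bcl11b) and 3 did not pass the test (Fezf2, Foxp2 and Tle4), by edgeR's quasi-likelihood test over all 20 libraries at an adjusted P under 0.05. These 6 of 9 stand beside 50.9% of all 15661 genes tested, since about as many genes differed between the tissues as did not, so that being called was in itself common. The size was less common: 4 members (Cux1, Cux2, Rorb and Mef2c) were lower by more than 1 on the log2 scale, as were 2.43% of all genes tested. For 5 members every hippocampus library lay below every cortex library, against 3.74% of all genes tested. Without the 8 libraries named above, 8 of the 9 members passed the test (48.9% of 15901 genes tested), the 2 additional ones being Foxp2 and Tle4. The libraries left out include the hippocampus libraries highest in Foxp2 and in Tle4, and also the cortex libraries highest in Tle4. The choice can thus set such calls by itself, and they are no independent support. Taken by kind, leaving out the cortex library of WT mouse 2 kept the count at 6 (48.9%), as did leaving out the cortex libraries of mice 8 and 9 (50.6%). Without the hippocampus libraries of mice 4, 7, 9 and 10 the count was 7 (43.7%), with Foxp2 added, and without that of mouse 2 it was 7 (52.0%), with Tle4 added. The reported test did not pair the tissues of a mouse. With the mouse as a block, Tle4 passed as well.

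**Figure D2:**
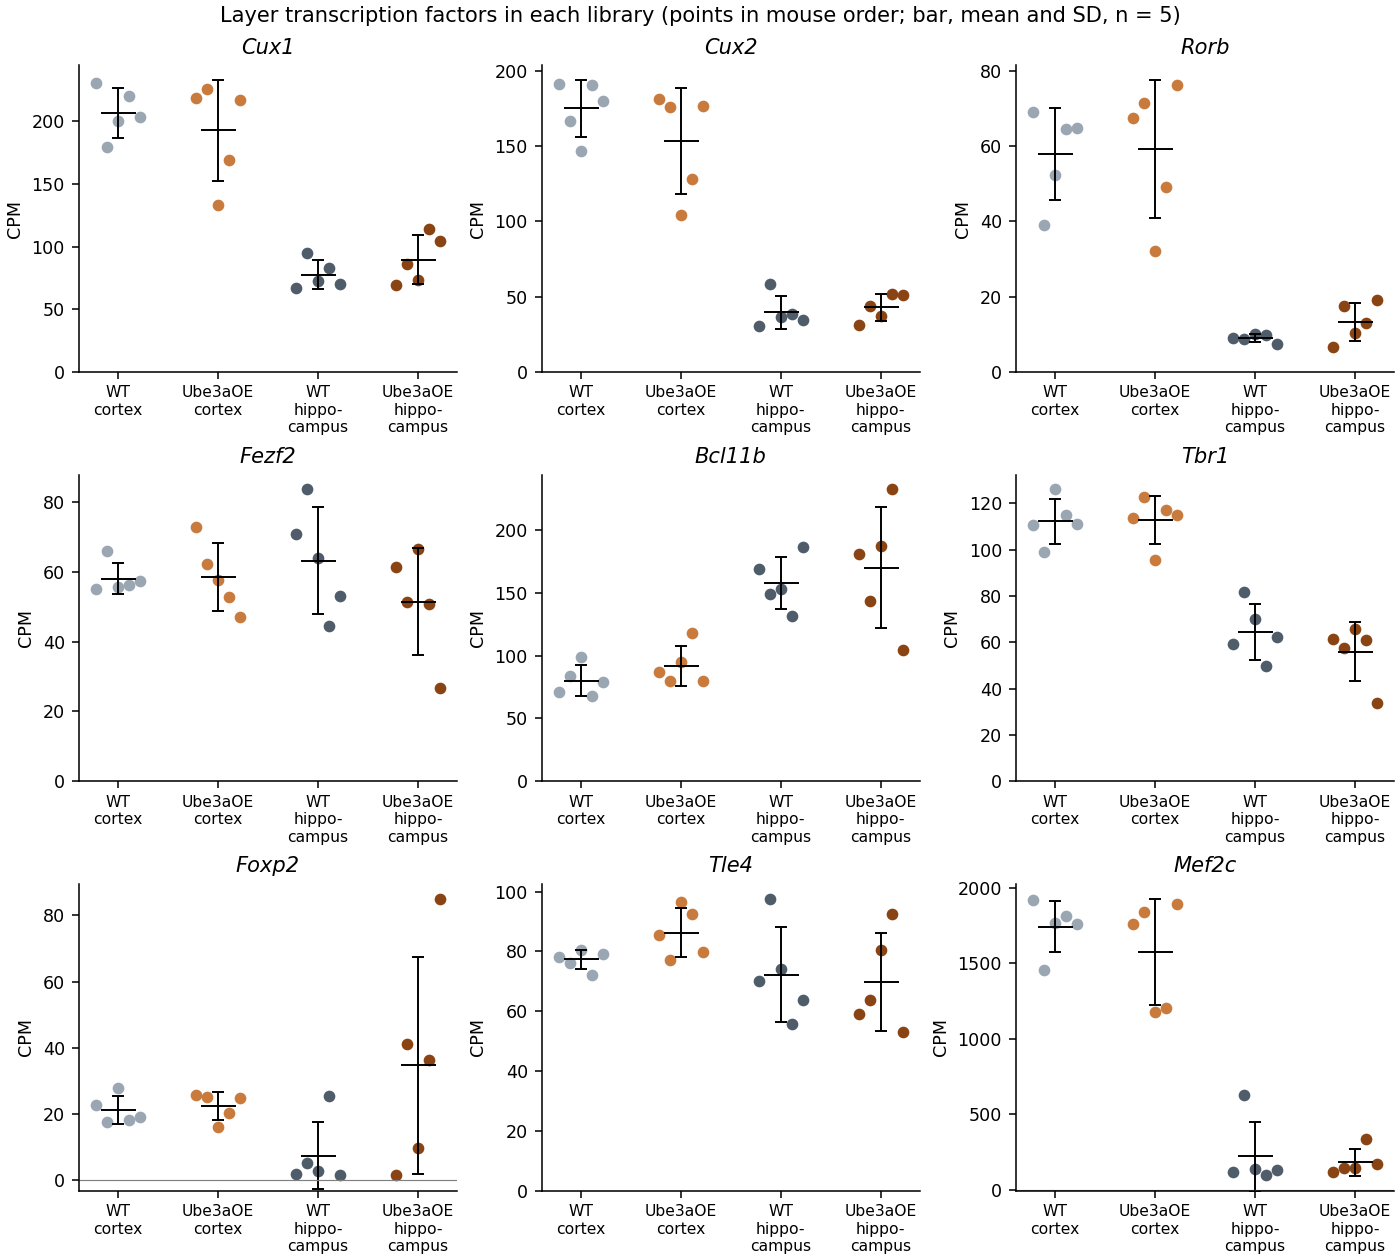
CPM of each gene in the 20 libraries, with 1 panel a gene and 1 point a library, in mouse order within each group of 5. Horizontal bars and whiskers are the mean and SD. Cux1, Cux2, Rorb, Tbr1 and Mef2c show no overlap between cortex and hippocampus, and Foxp2 ranges from 1.73 to 85.1 CPM in hippocampus.

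Cux1 and Cux2 encode related homeodomain proteins of upper layer neurons, where they are known to shape dendrites and synapses. Cux1 ranged in cortex from 133 to 231 CPM with a median of 210.0 CPM, and in hippocampus from 66.8 to 114 CPM with a median of 78.4 CPM. The tissues did not overlap. Cux1 was 2.40-fold lower in hippocampus (log2 fold change -1.26, SE 0.11, adjusted P = 2.37e-08). Cux2 ranged in cortex from 104 to 191 CPM (median 176 CPM) and in hippocampus from 30.8 to 58.3 CPM (median 37.7 CPM). It was thus 3.97-fold lower in hippocampus (log2 fold change -1.99, SE 0.13, adjusted P = 1.78e-09), again without overlap. In each of the 10 mice both genes were lower in the hippocampus than in the cortex of the same animal, with log2 differences from -1.79 to -0.57 for Cux1 and from -2.64 to -1.31 for Cux2. Both genes lie on chromosome 5 (GRCm38), Cux2 at 121856366 to 122050102 and Cux1 at 136248135 to 136567490, both on the minus strand. The annotated antisense gene whose exons overlap those of Cux1, Gm16599, had 2 reads over all libraries beside 45061 reads for Cux1.

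Rorb encodes a nuclear receptor known for its role in layer 4 neurons, which receive the thalamic input. It ranged in cortex from 32.0 to 76.3 CPM (median 64.7 CPM) and in hippocampus from 6.73 to 19.1 CPM (median 9.88 CPM). The tissues did not overlap, and Rorb was 5.35-fold lower in hippocampus (log2 fold change -2.42, SE 0.19, adjusted P = 1.11e-08). The log2 difference within a mouse ran from -3.33 to -1.63, lower in hippocampus in 10 of 10 mice. Rorb lies on chromosome 19 at 18930605 to 19111196 on the minus strand. Its paralog Rora ranged in cortex from 16.9 to 33.2 CPM and in hippocampus from 9.47 to 63.5 CPM, and did not pass the test (log2 fold change -0.38, SE 0.27, adjusted P = 0.262). The hippocampus libraries of mice 4, 7 and 10, which were high in thalamus markers, had 24.0, 42.9 and 63.5 CPM of Rora, and for Rorb 9.77, 17.4 and 19.1 CPM.

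The promoters of the upper layer factors were read from RefSeq (GRCm38.p6), whose promoter table held 8 of the 9 members. Cux2 and Rorb are shown because they were the upper layer factors with the largest regional differences. Each sequence is the 250 bases before an annotated transcription start, 5′ to 3′ on the gene's own strand. The windows are chr5:122049852-122050101 for Cux2 and chr19:19111197-19111446 for Rorb, both on the minus strand. RefSeq lists 2 starts for Cux2 and 2 for Rorb, and counts per gene did not resolve their use. Capitals mark matches to an E-box (CANNTG) or, on either strand, a GC box (GGGCGG).
Cux2: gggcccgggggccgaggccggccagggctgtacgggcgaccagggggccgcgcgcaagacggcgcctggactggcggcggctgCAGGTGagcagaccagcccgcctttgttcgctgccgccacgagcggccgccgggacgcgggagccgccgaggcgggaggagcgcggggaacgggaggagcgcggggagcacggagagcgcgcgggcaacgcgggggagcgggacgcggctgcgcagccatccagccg
Rorb: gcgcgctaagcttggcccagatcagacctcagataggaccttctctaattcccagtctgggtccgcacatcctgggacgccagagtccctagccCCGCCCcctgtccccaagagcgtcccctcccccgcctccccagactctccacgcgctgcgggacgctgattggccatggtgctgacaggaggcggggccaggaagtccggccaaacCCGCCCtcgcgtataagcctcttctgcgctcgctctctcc
The Cux2 window was 80% G and C and the Rorb window 66%, against a median of 52.4% over all 32851 windows of the table. Cux2 held 1 E-box, 167 bases before the start, and Rorb held 2 GC boxes, 156 and 40 bases before it. Of all windows 66.2% held an E-box and 32.7% a GC box.

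Fezf2 and Bcl11b belong to layer 5. Fezf2 encodes a zinc finger protein needed for the neurons that project below the cortex, and Bcl11b (also called Ctip2), another zinc finger protein, acts after it in the same neurons and is also known from CA1 pyramidal neurons, dentate granule neurons and striatal projection neurons. Fezf2 ranged in cortex from 47.2 to 72.7 CPM (median 56.8 CPM) and in hippocampus from 26.8 to 83.6 CPM (median 57.3 CPM). The ranges overlapped almost fully. Its log2 fold change was -0.03, with a 95% confidence interval from -0.32 to 0.25 and an adjusted P of 0.864, so that a difference of more than 0.32 in either direction lay outside the interval. Within a mouse, Fezf2 was lower in hippocampus in 6 and higher in 4 of the 10 animals. The sign was not settled: without the 4 hippocampus libraries high in thalamus or striatum markers the log2 fold change was 0.18 (SE 0.10, adjusted P = 0.134). The lowest Fezf2 value, 26.8 CPM, came from the hippocampus of mouse 10, the library with the highest thalamus marker sum. Fezf2 lies on chromosome 14 at 12342094 to 12348189 on the minus strand.

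Bcl11b was the only member with a called difference towards the hippocampus. It ranged in cortex from 68.2 to 118 CPM (median 81.7 CPM) and in hippocampus from 105 to 232 CPM (median 161 CPM). The ranges met at 1 point, since the lowest hippocampus library, that of mouse 10, lay below the highest cortex library, that of mouse 9. Bcl11b was 1.91-fold higher in hippocampus (log2 fold change 0.93, SE 0.12, adjusted P = 3.62e-06), and higher in 10 of 10 mice. Among all genes tested, 25.3% were called higher in hippocampus. Its paralog Bcl11a did not pass the test, with means of 209 CPM in cortex and 197 CPM in hippocampus (log2 fold change -0.09, SE 0.09, adjusted P = 0.418). Mouse 9 had the highest Bcl11b level of both tissues, 118 CPM in cortex and 232 CPM in hippocampus. Its hippocampus library also had the highest levels of the striatal genes Ppp1r1b (218 CPM, against 9.83 to 16.5 CPM in the other 9) and Drd1 (33.3 CPM, against 3.34 to 6.77 CPM), whose part in the Bcl11b value was not tested. Without the 4 hippocampus libraries high in thalamus or striatum markers, the log2 fold change of Bcl11b was 1.02 (SE 0.09).

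Bcl11b, as the only member called higher in hippocampus, is shown with its promoter in the same way (RefSeq, GRCm38.p6). The window is chr12:108003415-108003664, minus strand, 250 bases before the start.
Bcl11b: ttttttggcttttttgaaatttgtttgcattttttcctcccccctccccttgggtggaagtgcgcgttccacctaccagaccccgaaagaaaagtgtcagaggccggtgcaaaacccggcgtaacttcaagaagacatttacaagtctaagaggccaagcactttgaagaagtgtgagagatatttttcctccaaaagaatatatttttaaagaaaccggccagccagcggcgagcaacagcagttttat
This window was 44.8% G and C, below the median of 52.4%, and held none of the 5 motifs searched, so that it carries no capitals. The other 3 motifs were AGGTCA (bound by ROR receptors, in 14.0% of all windows), AGGTGT (the core bound by T-box factors, 11.8%) and the MEF2 site (3.20%), each searched on both strands. None of the 8 members with a window held any of these 3. A match or its absence describes only these letters in this window.

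Tbr1, Foxp2 and Tle4 belong to layer 6. Tbr1 encodes a T-box factor of corticothalamic and subplate neurons that is also present in hippocampal glutamatergic neurons. It ranged in cortex from 95.4 to 126 CPM (median 114 CPM) and in hippocampus from 33.6 to 81.8 CPM (median 61.2 CPM), without overlap. Tbr1 was 1.87-fold lower in hippocampus (log2 fold change -0.91, SE 0.10, adjusted P = 5.82e-07), and lower in 10 of 10 mice. It was also the steadiest member in cortex, with a coefficient of variation of 8.40% over the 10 libraries. Its extremes in hippocampus were mouse 10 (33.6 CPM) and mouse 2 (81.8 CPM), the libraries with the highest sums of thalamus markers and of layer 6 and subplate markers. Tbr1 lies on chromosome 2 at 61802930 to 61814114 on the plus strand.

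Foxp2, a forkhead factor of layer 6 neurons, is also known from the thalamus and from striatal projection neurons. It varied far less across the cortex libraries, from 16.1 to 27.8 CPM (median 21.6 CPM), than across the hippocampus libraries, where it was very uneven. The 5 WT hippocampus libraries had 1.93, 5.29, 2.90, 25.6 and 1.79 CPM of Foxp2 in mice 1 to 5. The 5 Ube3aOE hippocampus libraries had 1.73, 41.2, 9.69, 36.5 and 85.1 CPM in mice 6 to 10. The high values were those of mice 4, 7 and 10, whose hippocampus libraries had the high thalamus marker sums, and of mouse 9, which had the high striatum marker sum. Tcf7l2, a defining gene of thalamic neurons, had 226, 270.5 and 564 CPM in the hippocampus of mice 4, 7 and 10, and 46.2 CPM in that of mouse 8, which had the next highest Foxp2 level (9.69 CPM). In the other 6 hippocampus libraries Tcf7l2 ranged from 2.83 to 6.17 CPM. The 9 thalamus markers were detected in at least 1 library each but did not vary alike. Over the hippocampus libraries Slc17a6 ranged from 64.0 to 455 CPM, Prkcd from 27.7 to 54.2 CPM and Plekhg1 from 20.9 to 42.1 CPM. The part of the thalamus markers in the Foxp2 level was not tested.

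With all 20 libraries Foxp2 did not pass the regional test (log2 fold change -0.43, SE 0.53, adjusted P = 0.524). Without the 4 hippocampus libraries high in thalamus or striatum markers, it ranged from 1.73 to 9.69 CPM in the 6 that remained, below the lowest cortex library. It was then lower in hippocampus by 2.40 on the log2 scale (SE 0.32, adjusted P = 3.29e-05 by edgeR). The 4 left out were the hippocampus libraries with the highest Foxp2 levels, and they were chosen after the data were examined. The choice can thus set this difference by itself, and the call is no independent support. The same 4 libraries moved Tbr1 less, whose log2 fold change without them was -0.77 (SE 0.08). The regional call of Foxp2 thus turned on which hippocampus libraries were counted. Foxp2 lies on chromosome 6 at 14901349 to 15441977 on the plus strand. Its paralog Foxp1 was lower in hippocampus, with 143 CPM against 194 CPM (log2 fold change -0.44, SE 0.08, adjusted P = 0.000225).

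Tle4 encodes a Groucho-type corepressor used as a marker of corticothalamic neurons. It ranged in cortex from 72.2 to 96.6 CPM (median 79.5 CPM) and in hippocampus from 53.0 to 97.6 CPM (median 67.0 CPM), with overlap. The log2 fold change was -0.20 (SE 0.10, 95% confidence interval -0.41 to 0.00323, adjusted P = 0.0938), which did not pass the test. With the mouse as a block, that is with both tissues of an animal compared, the log2 fold change was -0.23 with an adjusted P of 0.0207, and Tle4 was lower in hippocampus in 8 of 10 mice. The exceptions were mouse 2, whose hippocampus library had the highest layer 6 and subplate marker sum, and mouse 9. Without the hippocampus library of mouse 2 the log2 fold change was -0.26 (SE 0.09, adjusted P = 0.0170). The other members of its family moved in different directions: Tle1 was higher in hippocampus (log2 fold change 0.67, SE 0.06), Tle3 was lower (-0.84, SE 0.08), and Tle2 did not pass the test (means of 17.6 CPM in cortex and 17.5 CPM in hippocampus). Tle4 lies on chromosome 19 at 14448150 to 14598051 on the minus strand.

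Mef2c encodes a MADS-box factor of excitatory neurons of several layers, which regulates synapse number in an activity-dependent way. It had the largest regional difference of the 9. In cortex it ranged from 1173 to 1916 CPM (median 1765 CPM) and in hippocampus from 99.4 to 629 CPM (median 139 CPM), without overlap. Mef2c was 8.29-fold lower in hippocampus (log2 fold change -3.05, SE 0.34, adjusted P = 1.15e-06) and lower in 10 of 10 mice, with log2 differences from -4.19 to -1.21. The smallest differences were those of mice 2 and 9. Their hippocampus libraries had 629 and 335 CPM of Mef2c, against 99.4 to 168 CPM in the other 8. They also had the highest sums of layer 6 and subplate markers, 439 and 390.3 CPM, against 249.9 to 321 CPM in the other 8. Their sums of hippocampus markers were the lowest, 461 and 492 CPM, against 558 to 730 CPM in the other 8. The part of these markers in the Mef2c level was not tested. Without all 8 doubted libraries the difference was larger, at -3.83 on the log2 scale (SE 0.07), with 113 to 145 CPM in the 5 hippocampus libraries that remained. Of the paralogs, Mef2d was lower in hippocampus by 0.19 on the log2 scale (SE 0.04, adjusted P = 0.000622), and Mef2a did not pass the test (log2 fold change 0.02, SE 0.09, adjusted P = 0.860).

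Mef2c is shown with its promoter as the member with the largest regional difference (chromosome 13, gene from 83504034 to 83667080 on the plus strand). The window is chr13:83503784-83504033, the 250 bases before the start in RefSeq (GRCm38.p6), which lists 3 starts for this gene, and the capitals are E-boxes.
Mef2c: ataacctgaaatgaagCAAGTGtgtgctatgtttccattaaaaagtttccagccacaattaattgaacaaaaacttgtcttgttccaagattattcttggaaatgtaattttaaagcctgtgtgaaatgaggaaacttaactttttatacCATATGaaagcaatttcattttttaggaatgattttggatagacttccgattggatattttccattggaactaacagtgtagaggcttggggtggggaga
This window was 33.6% G and C, the lowest of the 8 members, and held 2 E-boxes, 234 and 100 bases before the start. Counts were per gene, so that the use of the 3 starts was not resolved.

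**Figure D3:**
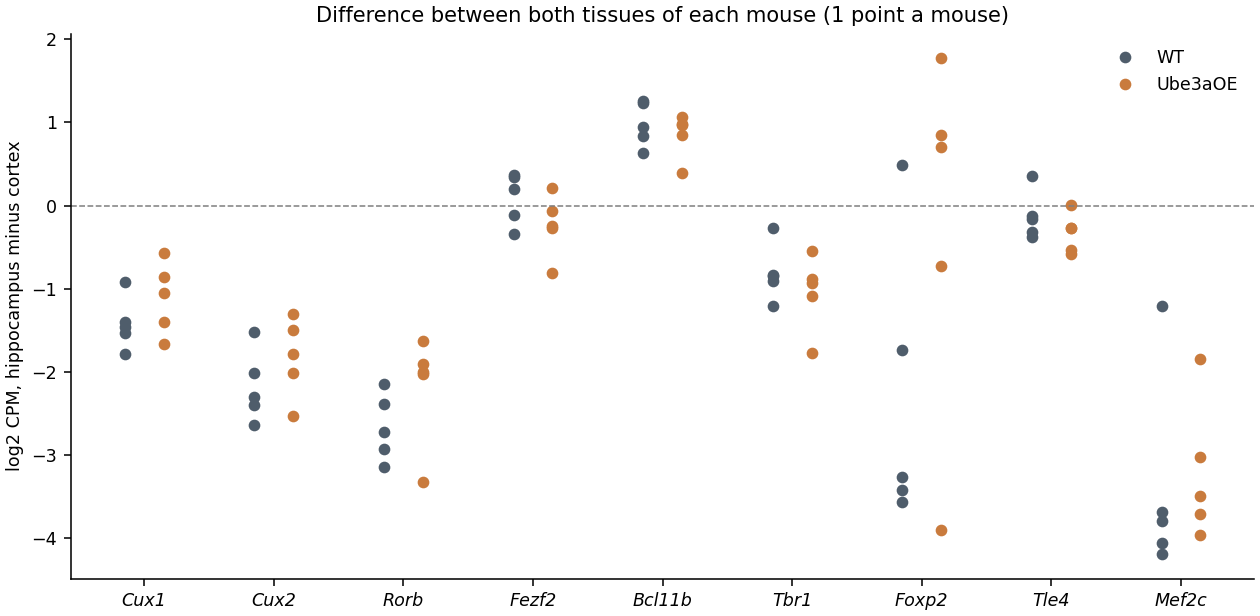
Difference in log2 CPM between the hippocampus and the cortex of each mouse, 1 point a mouse, WT and Ube3aOE side by side. Cux1, Cux2, Rorb, Tbr1 and Mef2c are below 0 in 10 of 10 mice and Bcl11b is above 0 in 10 of 10, while the points of Foxp2 run from -3.91 to 1.77.

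The cortex libraries of mice 8 and 9 set the lower end of several ranges. In cortex, mouse 8 had the lowest level of 6 of the 9 members (Cux1, Cux2, Rorb, Tbr1, Foxp2 and Mef2c) and the highest level of Tle4. Mice 8 and 9 had 133 and 169 CPM of Cux1, 104 and 128 CPM of Cux2, and 1173 and 1205 CPM of Mef2c, where the other 8 cortex libraries began at 179, 146 and 1457 CPM. These are the libraries with the highest hippocampus marker sums and the lowest layer 6 and subplate marker sums (618 and 657 CPM, against 784 to 919 CPM), and they also held 396 and 354 CPM of Crym, a layer 5 marker that is also abundant in hippocampus, against 61.7 to 134 CPM in the other 8. Their part was not tested. Without them the log2 fold changes between the tissues were larger in size, at -1.36 for Cux1, -2.10 for Cux2, -2.56 for Rorb and -3.16 for Mef2c.

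**Figure D4:**
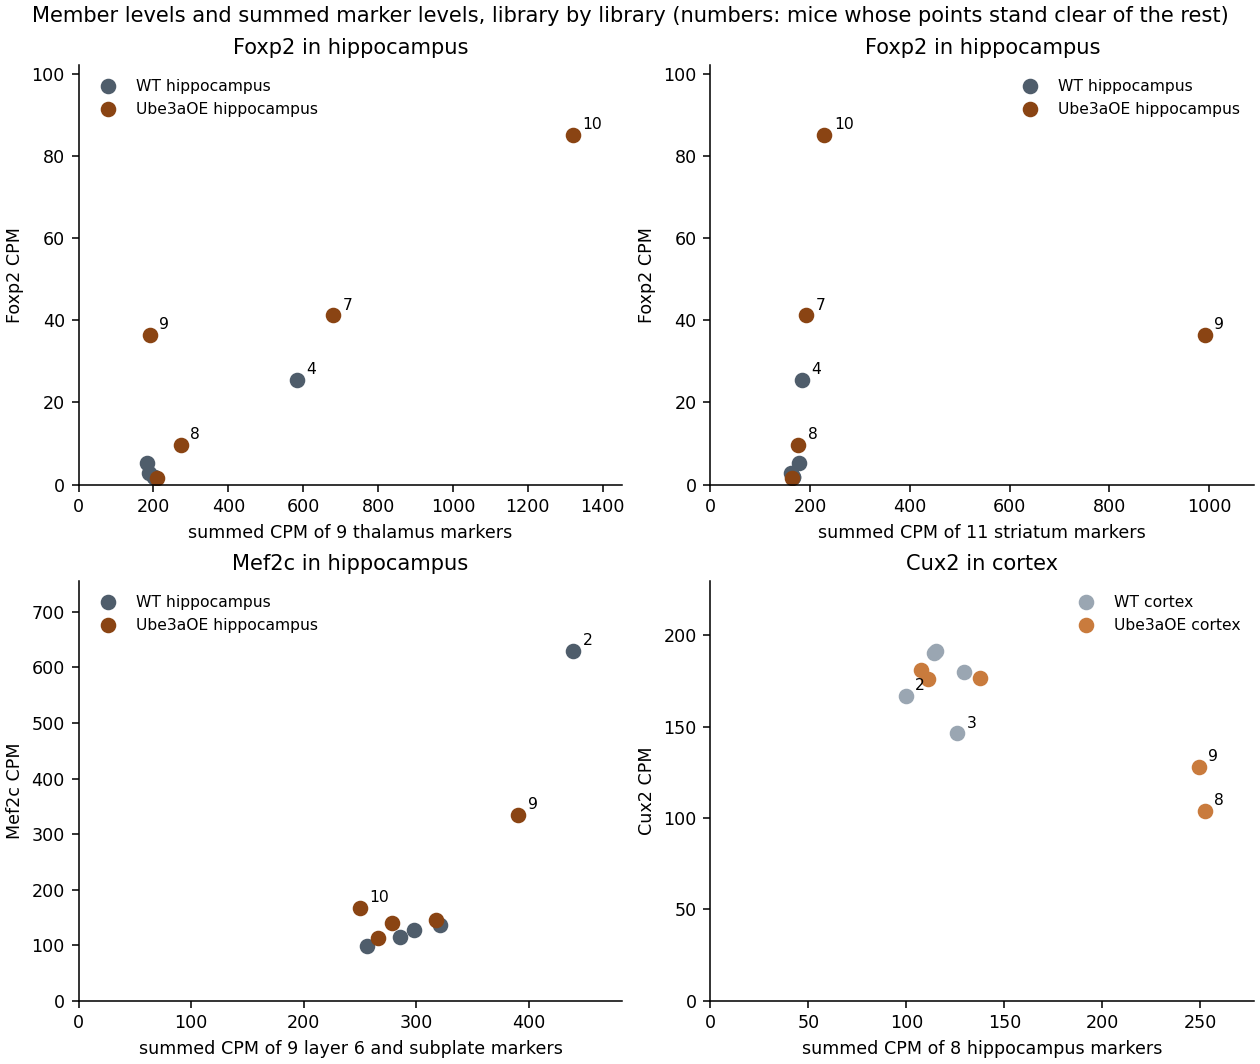
CPM of a member against the summed CPM of a marker list, 1 point a library, for Foxp2, Mef2c and Cux2 in the tissue named above each panel. The 3 hippocampus libraries with the most thalamus marker signal (mice 4, 7 and 10) and the 1 with the most striatum marker signal (mouse 9) are those with over 20 CPM of Foxp2, and the cortex libraries of mice 8 and 9 have the most hippocampus marker signal and the lowest Cux2.

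The genotype comparison asked whether the Ube3aOE mice differed from WT in these factors within a tissue. None of the 9 members passed the test in cortex or in hippocampus by edgeR's quasi-likelihood test, beside 0.00669% of 14947 genes tested in cortex and 0.00657% of 15220 in hippocampus, which was Ube3a alone in each tissue. Ube3a itself was higher by 1.31 on the log2 scale in cortex (SE 0.11, adjusted P = 0.000822) and by 1.32 in hippocampus (SE 0.11, adjusted P = 0.000441). At an unadjusted P under 0.05 stood 1 member in cortex, Tle4, beside 4.44% of all genes, and 1 member in hippocampus, Rorb, beside 7.21%. DESeq2 and limma called no member either. The genotypes overlapped for every one of the 9 members in both tissues, beside 0.676% of all genes without overlap in cortex and 1.12% in hippocampus.

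In cortex the fitted log2 fold changes of the 9 ran from -0.19 for Cux2 to 0.20 for Bcl11b, both with adjusted P = 0.960. The intervals were narrowest for Tle4, Tbr1 and Fezf2. For Tbr1 the 95% confidence interval ran from -0.15 to 0.17 and for Fezf2 from -0.20 to 0.23, so that a difference of 0.5 on the log2 scale lay outside both. The 5 WT cortex libraries had 78.3, 76.3, 80.6, 72.2 and 79.3 CPM of Tle4 in mice 1 to 5. The 5 Ube3aOE cortex libraries had 85.5, 77.3, 96.6, 92.4 and 79.7 CPM in mice 6 to 10. The high values were those of mice 8 and 9, and the groups overlapped. The log2 fold change of Tle4 was 0.16 (SE 0.07), with an unadjusted P of 0.0313 and an adjusted P of 0.960 by edgeR. Without the cortex libraries of mice 8 and 9 it was 0.06 (SE 0.06, adjusted P = 1.00).

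Leaving out the same cortex libraries turned the sign of Cux1, Cux2 and Mef2c but not that of Rorb. Over all 10 cortex libraries Cux1, Cux2 and Mef2c had log2 fold changes of -0.10, -0.19 and -0.15 in Ube3aOE. Without mice 8 and 9 the values were 0.09, 0.02 and 0.07. Rorb had a log2 fold change of 0.03 in cortex with all libraries and 0.30 without these (SE 0.16, adjusted P = 1.00). None of these values passed the test in either form.

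In hippocampus the largest difference in size was that of Foxp2, with a log2 fold change of 2.20 and a standard error of 1.08 (95% confidence interval -0.27 to 4.68, adjusted P = 0.677). The interval holds both no difference and a large one. Of the 4 hippocampus libraries with more than 20 CPM of Foxp2, 3 were Ube3aOE and 1 was WT, the libraries with the high thalamus or striatum markers. Without these 4 libraries the log2 fold change of Foxp2 was 0.94 (SE 0.72, adjusted P = 0.999), with 2 Ube3aOE libraries left. The 5 WT hippocampus libraries had 9.08, 8.80, 9.99, 9.77 and 7.33 CPM of Rorb, and the 5 Ube3aOE libraries 6.73, 17.4, 10.3, 13.1 and 19.1 CPM. The Ube3aOE libraries held both the lowest and the 4 highest values. Rorb had a log2 fold change of 0.57 (SE 0.24), with an unadjusted P of 0.0372 and an adjusted P of 0.668 by edgeR. Without the 4 libraries it was -0.05 (SE 0.20, adjusted P = 0.999).

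The genotype value of Mef2c in hippocampus moved with single libraries and with the tool. The WT libraries had 115, 629, 137, 99.4 and 127 CPM in mice 1 to 5 and the Ube3aOE libraries 113, 139.9, 145, 335 and 168 CPM in mice 6 to 10. The value of mouse 2 was the highest, followed by that of mouse 9, and the groups overlapped. The log2 fold change was -0.30 (SE 0.60, adjusted P = 0.902) with all libraries and 0.59 (SE 0.32, adjusted P = 0.550) without mouse 2. It was -0.64 (SE 0.62, adjusted P = 0.880) without mouse 9, and 0.0067 with all libraries by limma voom (adjusted P = 0.997). The remaining members had log2 fold changes in hippocampus from -0.30 for Fezf2 to 0.20 for Cux1, with adjusted P values of 0.720 to 0.942.

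**Figure D5:**
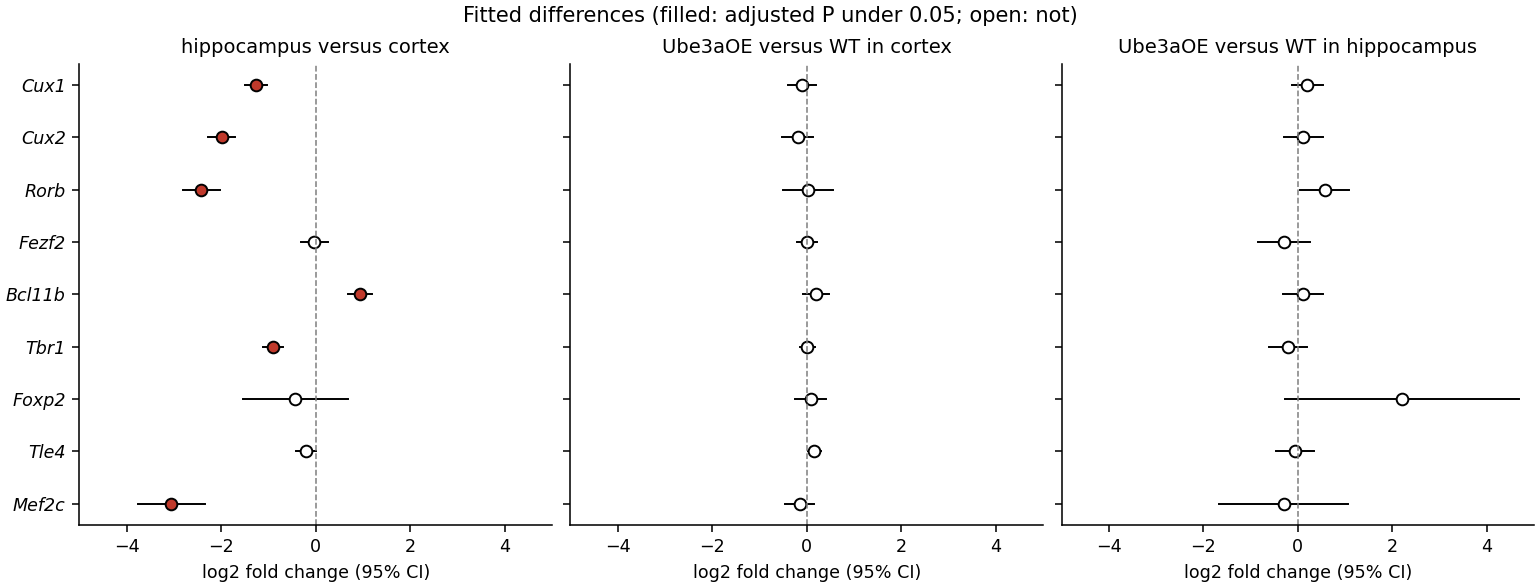
Fitted log2 fold changes of the 9 genes with 95% confidence intervals, for hippocampus versus cortex (left), Ube3aOE versus WT in cortex (middle) and Ube3aOE versus WT in hippocampus (right), on 1 scale. Filled points passed an adjusted P of 0.05, which 6 did in the left panel and 0 in the other panels, and the widest intervals in hippocampus are those of Foxp2 and Mef2c.

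Whether the genotype difference itself differed between the tissues was tested as an interaction over all 20 libraries. No member passed, nor did any other of the 15661 genes by edgeR, DESeq2 or limma, and at an unadjusted P under 0.05 there were 590 genes by edgeR, 603 by DESeq2 and 514 by limma, with 0 of the 9 members by edgeR beside 3.77% of all genes. The interaction of Foxp2 was the largest in size among the members, at 2.12 (SE 1.06, adjusted P = 0.997).

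Around these 9 genes, 38 further regulators of projection neurons were measured. Of the 38, 15 were lower and 11 higher in hippocampus, beside 25.6% and 25.3% of all genes tested, and 12 did not pass the test. Their median log2 fold change was 0.02, beside -0.005 over all genes tested. Differences towards cortex included those of the POU factor Pou3f2 (log2 fold change -2.18, SE 0.14), the homeobox gene Emx1 (-1.10, SE 0.13) and the zinc finger gene Tshz3 (-1.06, SE 0.33). The largest towards hippocampus were Emx2 (1.81, SE 0.15), a homeobox gene needed for the hippocampus to form, Neurod1 (1.73, SE 0.18), which promotes granule neuron differentiation, Zfpm2 (1.12, SE 0.12) and Tshz2 (1.12, SE 0.39). The related pair Emx1 and Emx2 thus differed in opposite directions. Emx1 fell from a mean of 48.6 CPM in cortex to 22.7 CPM in hippocampus, while Emx2 rose from 7.35 to 25.9 CPM. None of the 38 passed the test between genotypes in either tissue by edgeR. At an unadjusted P under 0.05 there were 4 in cortex, beside 4.44% of all genes, and 2 in hippocampus, beside 7.21%.

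Marker genes of the same layers that are not transcription factors gave a further description, to be read beside the 25.3% of all genes called higher in hippocampus and the 25.6% called lower. Of the 9 upper layer markers, 5 were lower and 2 higher in hippocampus, with a median log2 fold change of -0.81. The potassium channel gene Kcnh5 (-2.52, SE 0.30) and Inhba (-1.31, SE 0.20), which encodes an activin subunit, were lowest, and Nectin3 (0.53, SE 0.08) and Rspo1 (0.78, SE 0.23) were higher. Of the 9 layer 5 markers, 2 were lower and 5 higher, with a median of 0.42. Lratd2 (-0.55, SE 0.10) and S100a10 (-0.33, SE 0.07) were lower, while Crym, which encodes a thyroid hormone binding protein, rose from 143 to 945 CPM (2.84, SE 0.32) and Crim1 from 47.1 to 102 CPM (1.14, SE 0.14). Of the 9 layer 6 and subplate markers, 8 were lower and 1 higher, with a median of -1.68. Cplx3, a complexin of subplate neurons, was lowest (-3.45, SE 0.33), followed by Ccn2 (-2.14, SE 0.22), and Hs3st4 was higher by 0.23 (SE 0.05). Not all members followed their layer's list with a called difference. Fezf2 of layer 5 did not pass the test (log2 fold change -0.03). Of layer 6, Foxp2 (-0.43) and Tle4 (-0.20) had the negative sign of the list but did not pass the reported, unpaired test either. With the mouse as a block, Tle4 did pass. None of these 27 genes passed the test between genotypes in either tissue.

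The genes most like each member were found by the root mean square difference in log2 CPM over the 20 libraries, after centring each gene on its mean. Among the genes nearest to Mef2c were 9130024F11Rik (0.36) and Tshr (0.45), where the median gene differed by 1.76. Next to Cux2 stood Tbc1d5 (0.18), Tec (0.18) and Bace2 (0.21), and next to Cux1 stood Fhod3 (0.14), Plcxd2 (0.15) and Mtcl1 (0.15). The nearest genes to Rorb were Dock5 (0.32), Pou3f2 (0.37) and Cux2 (0.38). Fezf2 was closest to Bcl11a (0.18), Myo5b (0.19) and Khdrbs3 (0.20), and not to Bcl11b (0.59). Bcl11b was closest to Wnt7a (0.20), Islr2 (0.21) and Dscaml1 (0.21), and among the genes nearest to Tbr1 were Snx7 (0.15) and Gpr21 (0.17). Among those nearest to Tle4 were Zfp711 (0.13) and Sobp (0.13). The genes nearest to Foxp2, for which the median gene differed by 1.57, were Glra3 (0.62), Fzd10 (0.67) and Oprk1 (0.73). Among the members themselves, the closest pair was Fezf2 and Tle4 (0.28), followed by Cux2 and Rorb (0.38) and Cux1 and Cux2 (0.38), and the furthest pair was Bcl11b and Mef2c (2.20). The measure was taken over both tissues and all libraries, those that stood apart included, and says nothing of shared function or control.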

How the data were processed

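RNA was measured in 20 libraries (TruSeq Stranded mRNA), from the cortex and hippocampus of 5 WT and 5 Ube3aOE mice at P7. The authors deposited 1 table of raw read counts per gene for each library, whole numbers with no normalization. The submitters' processing notes name HISAT2 2.1.0, HTSeq 0.11.2 and GRCm38 (mm10); the counting strand and annotation are not given in the sources used here. Rows that name no gene held 18.8 to 30.3% of the reads of a library and were left out of totals and tests. Of 47729 gene identifiers, 47224 were matched to GENCODE M21, and 28659 had a count. At 14191093 to 16752326 reads on genes, the lowest member count in a library was 29 (Foxp2). Replicates differed beyond sampling noise in all 40 pairs (chi-square per degree of freedom 5.25 to 53.7).

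Counts were tested with edgeR 4.0.16 (TMM, filterByExpr, robust quasi-likelihood F test, R 4.3.3), over the 20 libraries for tissue and interaction and over 10 for genotype within a tissue, and P values were adjusted over all genes tested (Benjamini-Hochberg). The code was tested on simulated counts. The alternatives were DESeq2 1.42.0, limma 3.58.1 (voom), upper quartile factors, no filter on low counts, the mouse as a block, each mouse left out, and the exclusion of libraries by alignment or by marker sums above 1.5 times the tissue median (hippocampus markers in cortex, and thalamus, striatum, or layer 6 and subplate markers in hippocampus; other lists were not used for this), these exclusions being chosen after seeing the data. Mouse numbers in the labels pair the tissues of 1 animal. The correlation of deviations from the group mean was above 0.1 in 9 of 10 same-mouse pairs (median 0.215). Over 40 pairs of different mice its median was -0.0426. Centring on group means largely fixes that second value, so it is no independent baseline.

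The genes named are the 9 members, Ube3a, the paralogs of members, the 4 largest called changes in each direction among 38 further regulators, the 2 largest in each direction from each layer marker list, the 3 genes most like each member (pseudocount 0.1 CPM) and defining markers of other tissues. Ppp1r1b, Drd1 and Tcf7l2 belong to the last kind, as do the other genes named from the thalamus list. Crym belongs to the layer 5 markers. Some genes that this rule names are not reported here. The members and lists were chosen with earlier results of these data known.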

Additional observations from a re-analysis of the deposited data

Results flagged for a closer look

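In each group of 5 libraries, the highest or lowest value of a member was set against the range of its group. Of 36 groups searched, 6 held a value far from the other 4, where chance gives about 1.8 at 1 group in 20. Cux2 was 58.3 CPM in the WT hippocampus of mouse 2, where the nearest other library had 38.5 CPM. Fezf2 was 65.9 CPM in the WT cortex of mouse 2, the library with the lowest share of reads on genes, where the nearest other had 57.3 CPM. Tbr1 was 33.6 CPM in the Ube3aOE hippocampus of mouse 10, below the nearest other at 57.4 CPM. Foxp2 was 25.6 CPM in the WT hippocampus of mouse 4, above the nearest other at 5.29 CPM. Mef2c was 629 CPM in the WT hippocampus of mouse 2, where the nearest other had 137 CPM, and 335 CPM in the Ube3aOE hippocampus of mouse 9, where the nearest other had 168 CPM. Of the 6 values, 5 came from hippocampus libraries whose marker sums stood apart (mice 2, 4, 9 and 10), and the part of those markers was not tested.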

How the results depend on the processing

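The 6 regional calls among the members kept their direction and their side of the threshold under every alternative run. The count of members called was 6 to 8, and that of genes 7003 to 8737 (7973 in the reported test). With the mouse as replicate block 8737 genes were called and Tle4 passed (log2 fold change -0.23), and the block changed no other member's call. Tle4 also passed without WT mouse 2 (-0.26) and without Ube3aOE mouse 9 (-0.24), with an adjusted P between 0.0170 and 0.0407 where it passed. No member was called between genotypes or in the interaction under any alternative. In cortex DESeq2 called 4 genes against 1.

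The sign changed only for values that were not called. The cause was not tested. When each mouse was left out, the log2 fold change of Fezf2 between tissues ran from -0.090 to 0.015. For genotype in cortex, Cux1 ran from -0.16 to 0.0053, Rorb from -0.086 to 0.19, Fezf2 from -0.074 to 0.083 and Tbr1 from -0.039 to 0.059. For genotype in hippocampus, Bcl11b ran from -0.031 to 0.24, Tle4 from -0.17 to 0.085 and Mef2c from -0.64 to 0.59. The interaction of Mef2c ran from -0.59 to 0.79.

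Without the cortex library of WT mouse 2, Fezf2 between tissues was 0.0012, and for genotype in cortex Rorb was -0.086 and Tbr1 -0.039. Without the cortex libraries high in hippocampus markers, the cortex genotype values were 0.091 for Cux1, 0.021 for Cux2 and 0.068 for Mef2c, and the interaction of Bcl11b was 0.074. Without the hippocampus libraries high in thalamus or striatum markers, Fezf2 between tissues was 0.18, the hippocampus genotype values were -0.095 for Cux1, -0.23 for Cux2 and -0.045 for Rorb, and the interactions -0.030 for Cux2 and -0.071 for Rorb. Without the hippocampus library high in layer 6 and subplate markers, the hippocampus genotype values were 0.085 for Tle4 and 0.59 for Mef2c, and the interaction of Mef2c was 0.73.

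Without all 8 of these libraries, Fezf2 between tissues was 0.12. The cortex genotype values were 0.044 for Cux1, 0.0043 for Cux2 and 0.010 for Mef2c. The hippocampus genotype values were -0.045 for Rorb, 0.029 for Fezf2, 0.0048 for Tle4 and 0.028 for Mef2c. The interactions were -0.0055 for Cux1, -0.23 for Rorb, 0.079 for Bcl11b and 0.028 for Mef2c. Limma voom gave -0.014 for Rorb in cortex, 0.0067 for Mef2c in hippocampus and 0.18 for the interaction of Mef2c, and the replicate block gave 0.23 for the last. The lowest count of a member in a library was 29 reads (Foxp2 in hippocampus), at similar library totals.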

Other observations

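Marker lists of other cell types described the same 2 tissues. All 8 hippocampus markers were higher in hippocampus by edgeR's quasi-likelihood test, with a median log2 fold change of 2.20, where 25.3% of all genes were called higher and 25.6% lower. Of 8 microglia markers, 6 were higher in hippocampus and 0 lower (median 0.34), while of 6 endothelial markers 0 were higher and 1 was lower (median -0.03). Of 10 GABAergic neuron markers, 3 were higher, 1 was lower and 6 did not pass (median -0.17). Of 11 striatum markers 5 were higher and 2 lower (median 0.44), and of the 8 thalamus markers tested 7 were higher and 0 lower (median 1.14). Both counts include the hippocampus libraries of mice 4, 7, 9 and 10, set apart above for these same markers, and were not computed without them. By the median library, the striatum sum was 177 CPM in hippocampus and 231 CPM in cortex, and the thalamus sum 206 and 122 CPM. Of the 6 choroid plexus markers tested, 5 were higher and 0 lower (median 2.53). The choroid plexus sum was 1966 CPM in the hippocampus of mouse 7 and 351 CPM in that of mouse 9, against 9.87 to 33.6 CPM in the other 8. None of these lists held a gene called between genotypes.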
